A study of Mus musculus with 12 samples.

Results

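Brush border digestive hydrolases are enzymes anchored in the apical membrane of small-intestinal enterocytes, where they finish the digestion of sugars, peptides and phosphate esters at the cell surface. The set described here is 10 mouse genes chosen by symbol, all 10 of which were found among the 32587 gene rows of each library and passed the filter on low values. They are the disaccharidases Lct, Sis, Mgam and Treh, the intestinal alkaline phosphatase Alpi, the peptidases Anpep, Dpp4, Mme and Enpep, and the gamma-glutamyl transferase Ggt1.

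Polyadenylated RNA was sequenced from wild-type mouse small-intestinal organoids, which are three-dimensional epithelial cultures, kept in IntestiCult growth medium and labelled as duodenum. Cultures received cholic acid (CA), chenodeoxycholic acid (CDCA) or deoxycholic acid (DCA), or dimethyl sulfoxide (DMSO) as the control, with 3 libraries for each of the 4 groups. The labels give 50 mmol/L for the acids, a unit that is in doubt. Their protocol gives 96 hours of exposure after 2 days of culture, whereas the treatment label itself reads 2 days. No strain, sex, age or culture line is named, and whether libraries of a group are independent cultures is not stated, so the p-values cover the spread between these libraries and no more. DCA lacks a hydroxyl group of CA that CDCA keeps, and CDCA lacks another that DCA keeps.

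Enterocytes switch these genes on as they leave the crypt and mature along the villus, under transcription factors that include CDX2, HNF4A and GATA4. Lactase is the main disaccharidase of the suckling animal, while sucrase-isomaltase and trehalase take over at weaning. The enzymes are widely used as marks of enterocyte maturity.

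The promoter windows of 4 members are shown as examples: Sis, Lct and Alpi were higher with DCA, and Anpep was not. They are the 250 bases before the RefSeq start site (GRCm38.p6), read 5' to 3' on the strand of the gene. Capitals mark matches on either strand to short motifs of intestinal transcription factors. The letters searched were TTTATG for CDX, TGATAA or AGATAA for GATA factors, CAAAGTCC for HNF4 and TATAAA for the TATA box, beside the inverted repeat of the bile acid receptor FXR. Sis is at chr3:72967864-72968113, Lct at chr1:128328319-128328568, Alpi at chr1:87101607-87101856 and Anpep at chr7:79848211-79848460, all on the minus strand.
Sis: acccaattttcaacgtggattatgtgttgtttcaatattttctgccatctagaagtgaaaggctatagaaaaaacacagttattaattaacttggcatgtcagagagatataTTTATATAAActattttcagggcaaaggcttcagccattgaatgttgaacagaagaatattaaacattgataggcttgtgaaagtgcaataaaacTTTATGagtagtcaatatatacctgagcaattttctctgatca
Lct: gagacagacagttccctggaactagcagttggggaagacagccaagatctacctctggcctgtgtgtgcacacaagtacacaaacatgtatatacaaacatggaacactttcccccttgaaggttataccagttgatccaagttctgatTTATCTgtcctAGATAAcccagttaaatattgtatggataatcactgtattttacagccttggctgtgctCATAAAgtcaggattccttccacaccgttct
Alpi: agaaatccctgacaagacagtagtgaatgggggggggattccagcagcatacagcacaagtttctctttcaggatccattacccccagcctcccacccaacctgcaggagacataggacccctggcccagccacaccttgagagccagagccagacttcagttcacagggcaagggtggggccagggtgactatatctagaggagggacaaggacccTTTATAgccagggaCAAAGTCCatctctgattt
Anpep: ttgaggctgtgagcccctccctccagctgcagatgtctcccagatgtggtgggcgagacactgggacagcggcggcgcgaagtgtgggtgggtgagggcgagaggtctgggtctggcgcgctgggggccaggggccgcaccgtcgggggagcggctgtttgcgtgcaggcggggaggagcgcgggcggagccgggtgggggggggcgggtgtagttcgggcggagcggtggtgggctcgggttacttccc

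The Sis window is poor in G and C (31.6%) and holds a CDX match from -43 to -38 and overlapping TATA matches from -138 to -129, counted from the start site. The Lct window (42.8% G and C) holds GATA matches from -101 to -96 and from -90 to -85 and a CDX match from -31 to -26. The Alpi window (54.4%) holds a TATA match from -33 to -28 and an HNF4 match from -19 to -12. The Anpep window (72.8%) holds no match to any of these motifs. The Mme windows (45.6%, 73.2% and 73.6%) hold none either, and Mme was higher with DCA, as described below. Whether the motifs bear on the response was not tested. All 10 members had a window in the RefSeq table, 15 windows in all, since Mme has 3, of which the last 2 overlap, and Ggt1 has 4. AGATAA occurred in windows of 4 genes (Dpp4, Ggt1, Lct and Mgam), CAAAGTCC in 3 (Alpi, Ggt1 and Treh), TATAAA in 6 (Alpi, Dpp4, Enpep, Ggt1, Mgam and Sis), TTTATG in Lct and Sis and TGATAA in none. Counted by window, AGATAA was in 4 of the 15, CAAAGTCC in 3, TATAAA in 6, TTTATG in 2 and TGATAA in 0. Of all 32851 windows, 9.99% held AGATAA, 1.2% held CAAAGTCC, 12.4% held TATAAA, 10.8% held TTTATG and 7.94% held TGATAA. The FXR repeat occurred in 2 of the 32851 windows and in 0 of the 15. These matches describe letters, and the start sites used in the organoids were not measured.

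Levels are in TPM, transcript abundance scaled to transcript length and library total, so genes can be set side by side. Library totals ran from 889156 to 936841 TPM, and depth is unknown, so no counting interval can be given. Villin (Vil1), a structural protein of microvilli, was at 190.0 to 358 TPM, and the duodenal factors Pdx1 and Gata4 were at 8.16 to 11.2 and 76.8 to 105 TPM. The ileal bile acid-binding protein Fabp6, a known target of FXR, was at 1.53 ± 0.701 TPM in DMSO, 239.9 ± 89.1 TPM with CA, 372 ± 332 TPM with CDCA and 1411 ± 283 TPM with DCA (SD, n = 3), and it rose with each acid against DMSO in limma (adjusted p = 0.00466, 0.000705 and 1.81e-05). The ileal bile acid carrier Slc10a2 reached 0.822 TPM, and the colonic marker Car1 was listed at 0 in all 12 libraries. In single libraries, 4 mesenchymal markers summed to at most 6.07 TPM, 4 immune markers to at most 4.09 TPM and 3 endothelial markers to at most 3.57 TPM, with Cdh5 listed at 0 throughout. Tmprss15, the enteropeptidase of the duodenal brush border that activates trypsinogen, was listed at 0 in 6 libraries and reached 0.0528 TPM.

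In DMSO, Anpep was the most abundant member at 329 ± 52.7 TPM (mean ± SD, n = 3), followed by Sis at 253 ± 105 TPM, whose libraries overlapped those of Anpep. Mgam was at 128 ± 14.5 TPM, clear of its neighbours on both sides. Dpp4 (52.2 ± 8.53 TPM) and Alpi (42.6 ± 10.1 TPM) overlapped each other. Ggt1 (18.7 ± 8.45 TPM), Enpep (11.4 ± 3.69 TPM), Treh (6.98 ± 3.17 TPM), Mme (4.68 ± 2.11 TPM) and Lct (3.19 ± 2.20 TPM) formed a low tier in which each gene overlapped the next. With CDCA the means followed the same order. With CA, Sis (412 ± 83.2 TPM) and Anpep (371 ± 40.3 TPM) overlapped, with the Sis mean above that of Anpep. With DCA, Sis was the most abundant member, clear of Anpep, and Ggt1 stood between Mgam and Alpi, overlapping both.

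**Figure D1:**
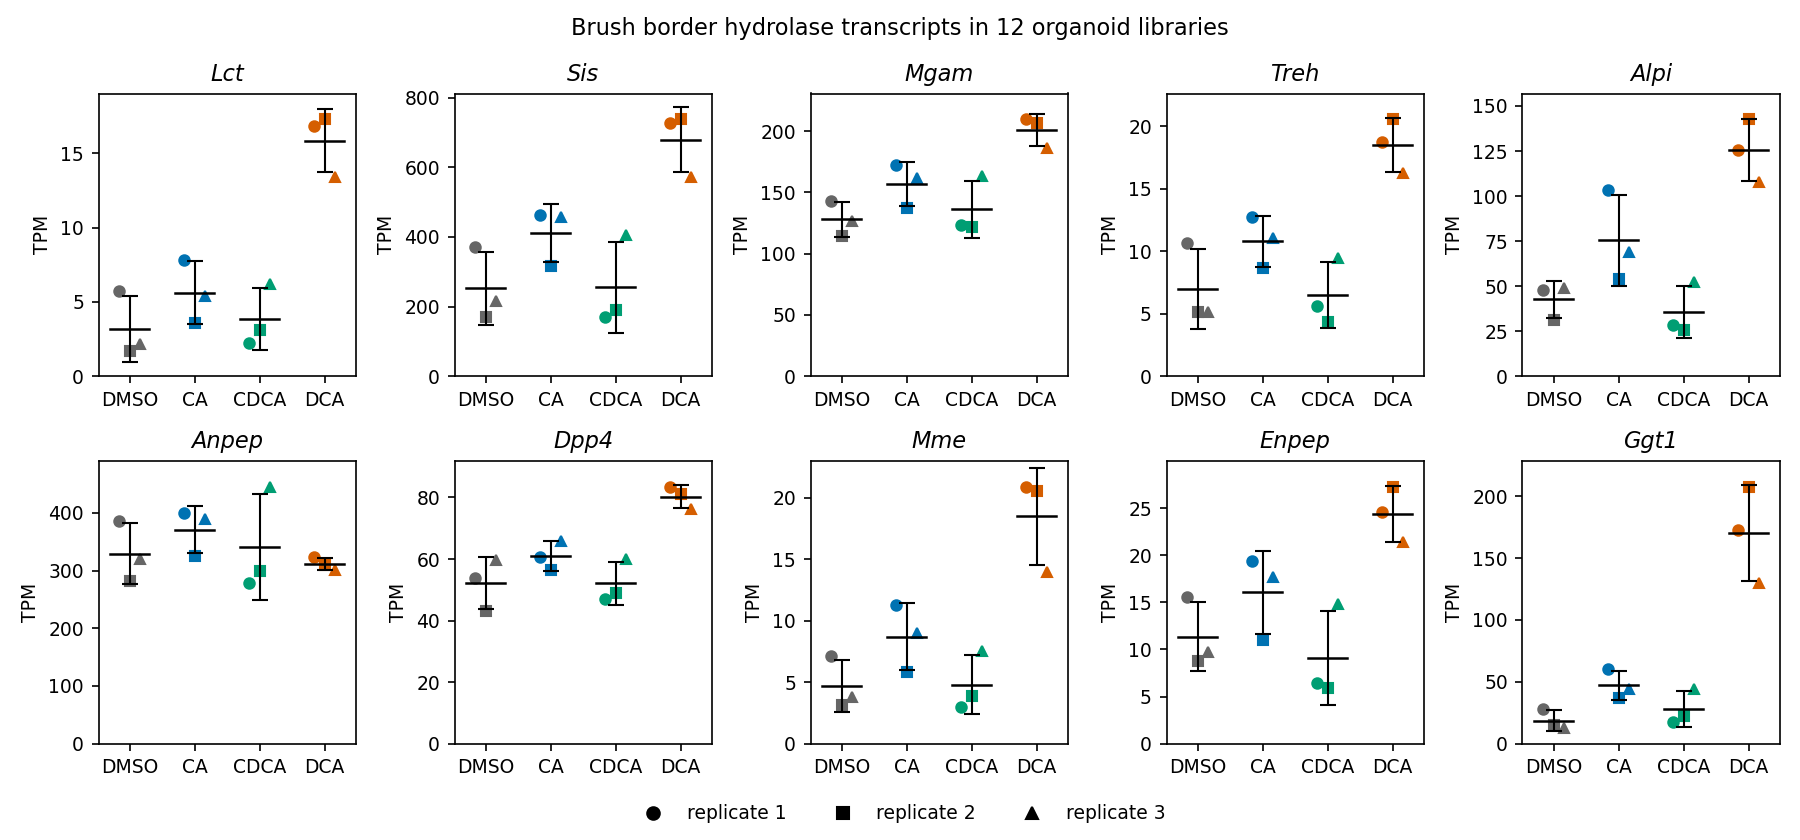
Level in TPM of each of the 10 genes (vertical axes, starting at 0) in the 4 groups, with 1 symbol per library, shaped by replicate number, and a bar for the mean with its SD (n = 3). The 3 DCA libraries lie above every DMSO library for all genes but Anpep, whose DCA libraries lie between 302 and 323 TPM.

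Most of the set was higher with DCA than with DMSO. Of the 10 members, 9 rose and 0 fell at an adjusted p under 0.05 in limma, a linear model of log2(TPM + 1) over all 12 libraries with Benjamini-Hochberg adjustment over the 11952 rows tested, where 18.8% of rows were called higher and 19.2% lower. The same 9 had every DCA library above every DMSO library, against 24.2% of all rows. The median difference of the 10 was 1.42 on the log2(TPM + 1) scale, beside -0.021 for all rows, and this scale understates the change of low genes. In bulk libraries, more cells of a type and more RNA per cell cannot be told apart. The comparisons of each acid with DMSO share the same 3 control libraries.

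Sis, sucrase-isomaltase, which splits sucrose and the branch points of starch, was at 371, 171 and 216 TPM in the DMSO libraries and at 728, 738 and 572 TPM in the DCA libraries. The lowest DCA library stood above the highest DMSO library, replicate 1, which itself was far above the other two. Sis rose by 1.49 (95% confidence interval, CI 0.71 to 2.27, limma adjusted p = 0.00743). Lct, lactase, the enzyme that splits milk sugar, was at 5.72, 1.70 and 2.15 TPM in DMSO and at 16.8, 17.3 and 13.4 TPM in DCA. Its rise of 2.12 (CI 1.33 to 2.91, limma adjusted p = 0.000904) was the largest among the disaccharidases, and it was still the least abundant member. Treh, trehalase, which splits the fungal and insect sugar trehalose, was at 10.6, 5.12 and 5.17 TPM in DMSO and at 18.7, 20.6 and 16.2 TPM in DCA, with no overlap. It rose by 1.35 (CI 0.77 to 1.94, limma adjusted p = 0.00208). Mgam, maltase-glucoamylase, which releases glucose from the ends of starch fragments, was at 143, 114 and 127 TPM in DMSO and at 209.8, 207 and 186 TPM in DCA. It rose by 0.65 (CI 0.38 to 0.92, limma adjusted p = 0.00149), the smallest rise of the 4 sugar-splitting enzymes.

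Proportions among the disaccharidases differed between DMSO and DCA without overlap of the libraries. The ratio of Sis to Lct within a library was 88.6 ± 20.5 in DMSO and 42.8 ± 0.384 in DCA (SD, n = 3, exact two-sided permutation p = 0.1, the smallest that 3 against 3 libraries allow). The ratio of Sis to Mgam was 1.93 ± 0.584 in DMSO and 3.37 ± 0.266 in DCA (SD, n = 3, exact two-sided permutation p = 0.1). A ratio inside a library does not depend on the total to which TPM is scaled.

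Alpi, the phosphatase that removes phosphate from luminal nucleotides and bacterial endotoxin, was at 48.0, 30.96 and 48.8 TPM in DMSO and at 126, 143 and 108 TPM in DCA, with every DCA library above every DMSO library (1.56, CI 0.93 to 2.18, limma adjusted p = 0.00155). Ggt1, which cleaves the gamma-glutamyl bond of glutathione, was at 28.4, 14.8 and 12.9 TPM in DMSO and at 173, 208 and 129.9 TPM in DCA. The DCA mean of Ggt1 was 9.10 times the DMSO mean, the largest ratio of the 10 genes, and its log2 difference ranked 8 of the 11952 rows from the top (3.17, CI 2.37 to 3.98, limma adjusted p = 0.000151). Of the 31-base words in GENCODE M21 transcripts of Alpi, 7.07% were shared with other genes and 3.47% with Akp3, another mouse intestinal alkaline phosphatase, so reads of the pair may be split uncertainly. For Ggt1 the share was 0%.

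The peptidases split. Mme, neprilysin, an endopeptidase that cuts small peptides, was at 7.10, 3.17 and 3.79 TPM in DMSO and at 20.9, 20.6 and 14.0 TPM in DCA, without overlap, and rose by 1.82 (CI 1.12 to 2.51, limma adjusted p = 0.00103). Enpep, aminopeptidase A, which removes acidic residues from the amino end of peptides, was at 15.6, 8.79 and 9.73 TPM in DMSO and at 24.5, 27.3 and 21.4 TPM in DCA. It rose by 1.07 (CI 0.40 to 1.74, limma adjusted p = 0.0168). Its limma adjusted p was 0.0623 without DCA replicate 2, 0.0612 without DMSO replicate 2 and 0.0562 without DMSO replicate 3, and over all alternatives it ran from 0.000227 to 0.0623. Dpp4, which removes dipeptides after proline and inactivates incretin hormones, was at 53.9, 43.0 and 59.8 TPM in DMSO and at 83.5, 81.2 and 76.3 TPM in DCA. The groups did not overlap, and it rose by 0.62 (CI 0.36 to 0.89, limma adjusted p = 0.00178).

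Anpep, aminopeptidase N, which removes neutral residues from the amino end of peptides, did not pass the test. It was at 386, 282 and 319.8 TPM in DMSO and at 323, 310.4 and 302 TPM in DCA, so the DCA libraries lay inside the DMSO range. Its difference was -0.067 (CI -0.41 to 0.28, limma adjusted p = 0.770), with an upper bound below the lower bound of each other member. Without DMSO replicate 1 the difference was 0.053. The ratio of Sis to Anpep was 0.747 ± 0.189 in DMSO and 2.18 ± 0.251 in DCA, higher in every DCA library (SD, n = 3, exact two-sided permutation p = 0.1). The summed level of the 4 peptidases was 397 ± 63.0 TPM in DMSO and 435 ± 19.7 TPM in DCA, while that of the 4 disaccharidases was 391 ± 125 TPM in DMSO and 914 ± 110.0 TPM in DCA (SD, n = 3).

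**Figure D2:**
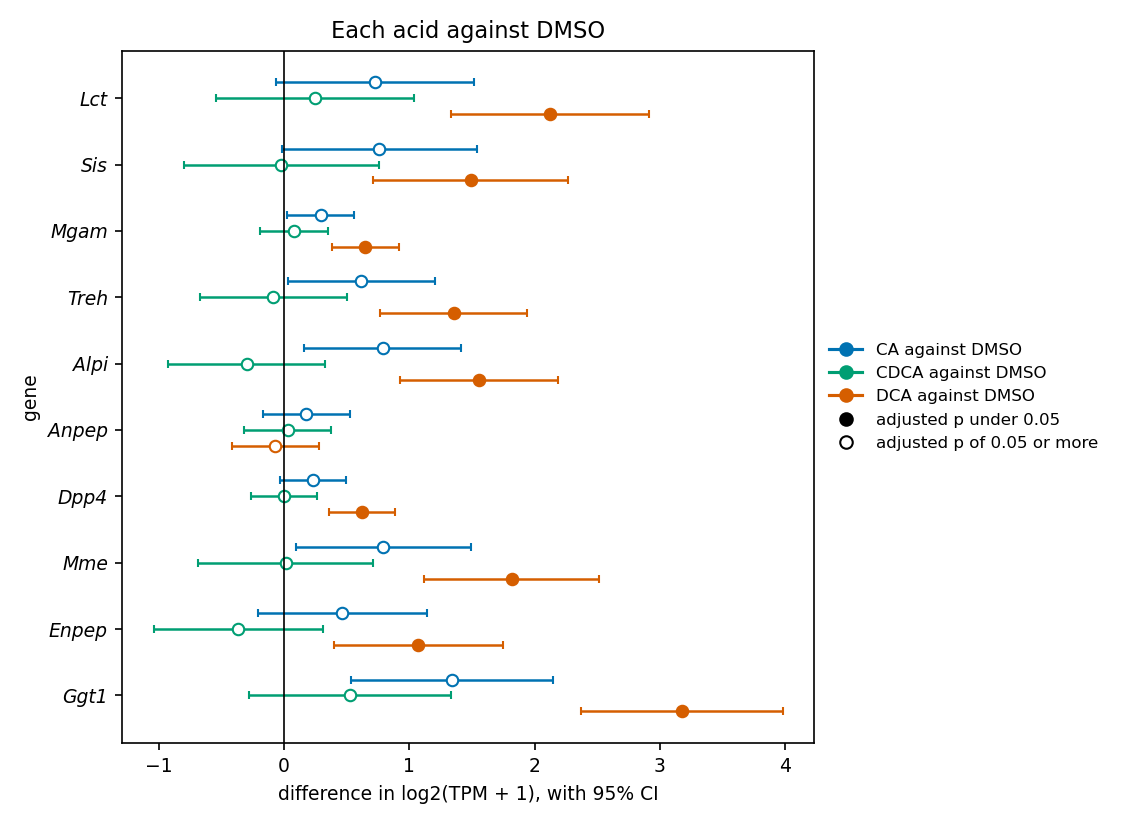
Difference of each acid from DMSO in log2(TPM + 1) (horizontal axis) for the 10 genes (vertical axis), with the 95% CI from limma, filled where the adjusted p was under 0.05. The filled points are 9 DCA points, and the Anpep points of the 3 acids lie between -0.067 and 0.18.

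With CA against DMSO, no member passed the limma test (0 of 10, against 0.577% of all rows), and 5 of 10 had an unadjusted p under 0.05, against 14.8% of all rows. That count was 1 without CA replicate 1 or DMSO replicate 2, 2 without CA replicate 3, 3 without DMSO replicate 3, with median-ratio scaling or without mitochondrial and rRNA rows, and 7 without CA replicate 2 or DMSO replicate 1. In those fits 1161 to 2358 of all rows had an unadjusted p under 0.05 in limma. With all 12 libraries, all 10 differences were positive, as were 6726 of all 11952 rows. The median of the 10 was 0.67 beside 0.028 for all rows. The CA libraries of Ggt1, at 60.4, 37.1 and 44.0 TPM, were all above those of DMSO, and so were those of Alpi, at 103, 54.2 and 68.7 TPM. These were the 2 members without overlap, against 11.8% of all rows with CA higher. The Ggt1 difference was 1.34 (CI 0.54 to 2.15, limma adjusted p = 0.132), and that of Alpi was 0.79 (CI 0.16 to 1.42, limma adjusted p = 0.231). Sis in CA was at 464, 316 and 457 TPM, with replicate 2 below DMSO replicate 1, and differed by 0.76 (CI -0.017 to 1.54, limma adjusted p = 0.349). DMSO replicate 1 was the highest DMSO library for 8 of the 10 members. With DMSO replicate 1 and CDCA replicate 3 both left out, 7 members passed (Lct, Sis, Mgam, Treh, Mme, Enpep and Ggt1), with Ggt1 at 1.67 (limma adjusted p = 0.00270). Both libraries were left out after seeing the data. Loss of a high control library raises the difference by itself, so no rise with CA is drawn from these calls. Under that setting 616 of 11895 rows were called higher, against 68 of 11952 with all 12 libraries. Without DMSO replicate 1 alone, 0 members passed at the same median difference (0.91), and 170 of 11925 rows were called higher. All groups share a single estimate of the spread in these fits, to which CDCA replicate 3, a library of neither group, contributes. With that library left out beside DMSO replicate 1, the count went from 0 to 7 members. Whether this came through the estimate of the spread was not tested.

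CDCA against DMSO gave no call in limma (0 of 10, against 0.594% of all rows), and 0 of 10 had an unadjusted p under 0.05, against 9.77% of all rows. Of the 10 differences 6 were positive, a share near that of all rows (6612 of 11952). Their median was 0.0077 beside 0.018 for all rows. Every member's CDCA libraries overlapped those of DMSO, while 6.97% of all rows were higher and 3.03% lower without overlap. Ggt1 was at 17.4, 22.3 and 44.4 TPM and had the largest difference, 0.53 (CI -0.27 to 1.34, limma adjusted p = 0.755). Enpep, at 6.45, 5.91 and 14.9 TPM, had the lowest, -0.36 (CI -1.04 to 0.31, limma adjusted p = 0.814). Sis was at 169.9, 190.4 and 404 TPM, with replicate 3 far above the others, and differed by -0.021 (CI -0.80 to 0.76, limma adjusted p = 0.993). CDCA replicate 3 was the highest CDCA library for all 10 members.

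Between the acids, at the same labelled dose and time, 3 pairs were compared, with p-values adjusted over all rows of each comparison. In DCA against CDCA, 9 of 10 members were higher with DCA in limma, against 12.8% of all rows, and for the same 9 every DCA library was above every CDCA library, against 21.3% of all rows. Ggt1, at 2.64 (CI 1.84 to 3.45, limma adjusted p = 0.00108), had the largest positive difference of the 11952 rows. Lct differed by 1.87 (CI 1.08 to 2.66, limma adjusted p = 0.00354) and Alpi by 1.85 (CI 1.23 to 2.48, limma adjusted p = 0.00138). Mgam and Dpp4 had the smallest called differences, 0.57 (CI 0.30 to 0.84) and 0.62 (CI 0.36 to 0.89). Anpep differed by -0.097 (CI -0.44 to 0.25, limma adjusted p = 0.685), and by 0.11 without CDCA replicate 3.

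DCA and CA differ by the hydroxyl group that gut bacteria remove. Of the 10 members 3 were higher with DCA in limma, against 5.79% of all rows. They were Ggt1 at 1.83 (CI 1.03 to 2.64, limma adjusted p = 0.0106), Lct at 1.39 (CI 0.60 to 2.18, limma adjusted p = 0.0263) and Dpp4 at 0.39 (CI 0.13 to 0.66, limma adjusted p = 0.0488). Every DCA library was above every CA library for 9 members, against 16.9% of all rows. Anpep was the reverse, with all DCA libraries below all CA libraries (399.6, 325 and 389 TPM), against 28.7% of all rows, at a difference of -0.25 (CI -0.59 to 0.10, limma adjusted p = 0.323). Mme, at 1.02 (CI 0.33 to 1.72, limma adjusted p = 0.0508), and Sis, at 0.73 (CI -0.048 to 1.51, limma adjusted p = 0.190), did not pass. The number called was 0 without DCA replicate 2 and 1 with no filter on low rows. It was also 1 without CA replicate 2, CA replicate 3, DCA replicate 1 or DCA replicate 3. In those fits 199 to 455 of all rows were called higher, against 692 of 11952 in the fit above. The number of members was 8 when the 6 libraries were fitted alone, where 1299 of 11633 rows were called higher. With DMSO replicate 1 and CDCA replicate 3 both left out, after seeing the data, it was 8, where 1081 of 11895 rows were called higher. Dpp4 lost its call when each single library of the 6 was left out in turn.

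In CDCA against CA, which differ by another hydroxyl group, no member passed in limma (0 of 10, against 0.0335% of all rows), and 6 of 10 had an unadjusted p under 0.05, against 7.20% of all rows. That count was 1 without CA replicate 1, CA replicate 3, CDCA replicate 1 or CDCA replicate 2, 3 when the 6 libraries were fitted alone, and 10 without CDCA replicate 3. In those fits 456 to 1790 of all rows had an unadjusted p under 0.05 in limma. With all 12 libraries, all 10 differences were negative, while 5889 of all 11952 rows were positive. The median of the 10 was -0.74 beside -0.0027 for all rows. Alpi was the single member with every CDCA library (28.5, 25.8 and 52.2 TPM) below every CA library, against 6.47% of all rows, at -1.08 (CI -1.71 to -0.46, limma adjusted p = 0.410). Enpep differed by -0.83 (CI -1.50 to -0.16, limma adjusted p = 0.602). With DMSO replicate 1 and CDCA replicate 3 both left out, 6 members passed as lower with CDCA. This choice was made after seeing the data, and CDCA replicate 3 was the highest CDCA library for all 10 members. Its loss lowers CDCA by itself, so nothing is drawn from these calls. Under that setting 343 of 11895 rows were called lower, against 3 of 11952 with all 12 libraries. Without CDCA replicate 3 alone, 0 members passed at the same median difference (-1.04), and 32 of 11923 rows were called lower.

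**Figure D3:**
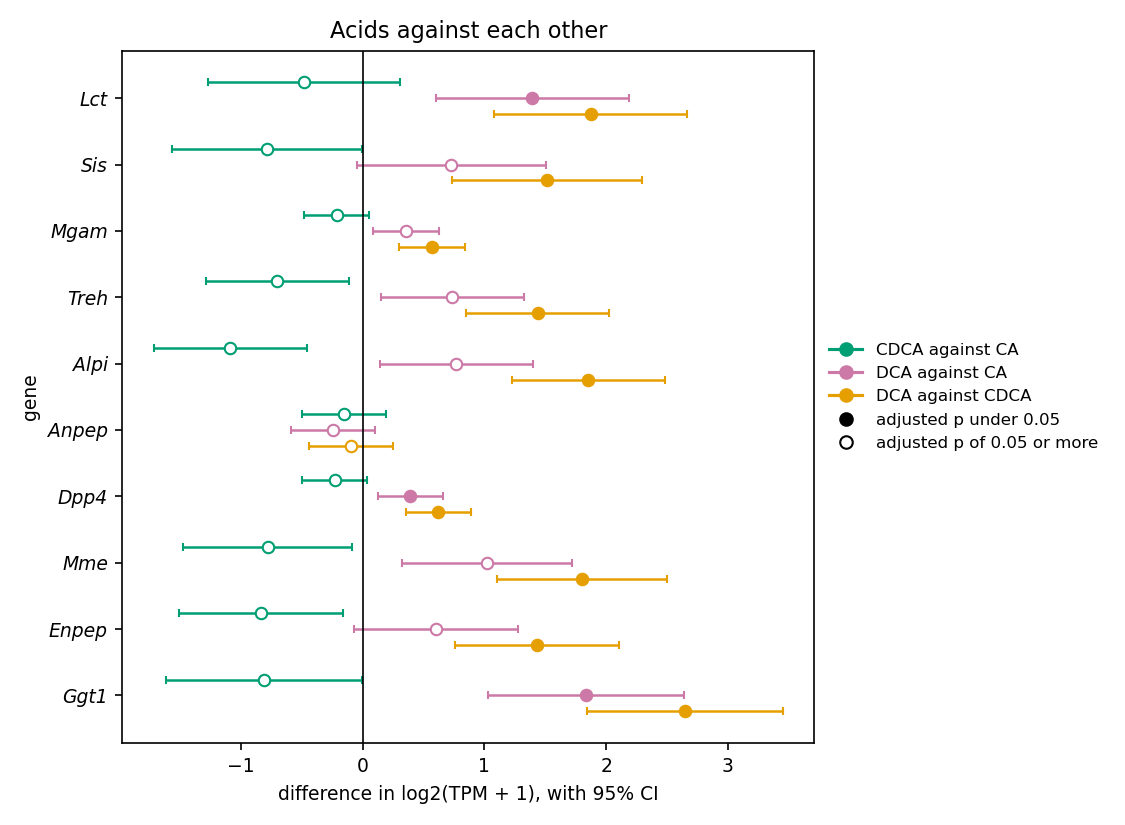
Difference between acids in log2(TPM + 1) (horizontal axis) for the 10 genes (vertical axis), with the 95% CI from limma, filled where the adjusted p was under 0.05. All CDCA against CA points lie below 0 and none is filled, while 9 DCA against CDCA points and 3 DCA against CA points are filled.

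Within a group the members moved together from library to library. In DMSO, replicate 2 was the lowest library for 9 of the 10 members, in CA replicate 2 for all 10, and in DCA replicate 3 for all 10. The highest library was replicate 1 for 9 members in CA and replicate 3 for all 10 in CDCA. The summed enterocyte markers listed below were lowest and highest in these same libraries, so this was not particular to the members. The share of all rows with these extremes was not computed. The median over members of the ratio of the highest to the lowest library was 1.93 in DMSO, 1.55 in CA, 2.27 in CDCA and 1.28 in DCA. Anpep had its highest libraries in DMSO replicate 1, CA replicate 1 and CDCA replicate 3, each also the highest library of its group for Sis. Under DCA, Sis was at its highest and Anpep was below each of those 3 libraries.

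With DCA against DMSO, enterocyte markers moved in the same direction as most members, and markers of the other epithelial cell types listed moved the opposite way. The summed level of 6 enterocyte markers (Vil1, Krt20, Fabp1, Fabp2, Apoa1 and Apoa4) was 1157 to 1879 TPM in the DMSO libraries, 1965 to 3169 TPM with CA, 1269 to 1939 TPM with CDCA and 3983 to 5571 TPM with DCA. That of 4 stem cell markers (Lgr5, Olfm4, Ascl2 and Smoc2) was 334 to 737 TPM in DMSO, 227 to 328 TPM with CA, 197 to 493 TPM with CDCA and 88.3 to 104 TPM with DCA. DMSO replicate 1 and CDCA replicate 3 had the lowest stem cell sums of their groups. In DCA against DMSO all 6 enterocyte markers rose and all 4 stem cell markers fell in limma, where 18.8% of all rows were called higher and 19.2% lower. Also lower were 4 of 4 markers of dividing cells (median -0.99), 4 of 4 of Paneth cells (median -1.29), 2 of 4 of goblet cells (median -0.47) and 2 of 4 of enteroendocrine cells (median -0.28). The summed level of the dividing cell markers was 257 to 351 TPM in DMSO and 137 to 152 TPM with DCA, and that of the Paneth cell markers was 3338 to 5737 TPM and 2419 to 2782 TPM. Mitochondrially encoded RNA made up 14.6% to 20.1% of TPM in DMSO and 11.2% to 12.7% with DCA. The part of these shifts in the hydrolase results was not tested.

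**Figure D4:**
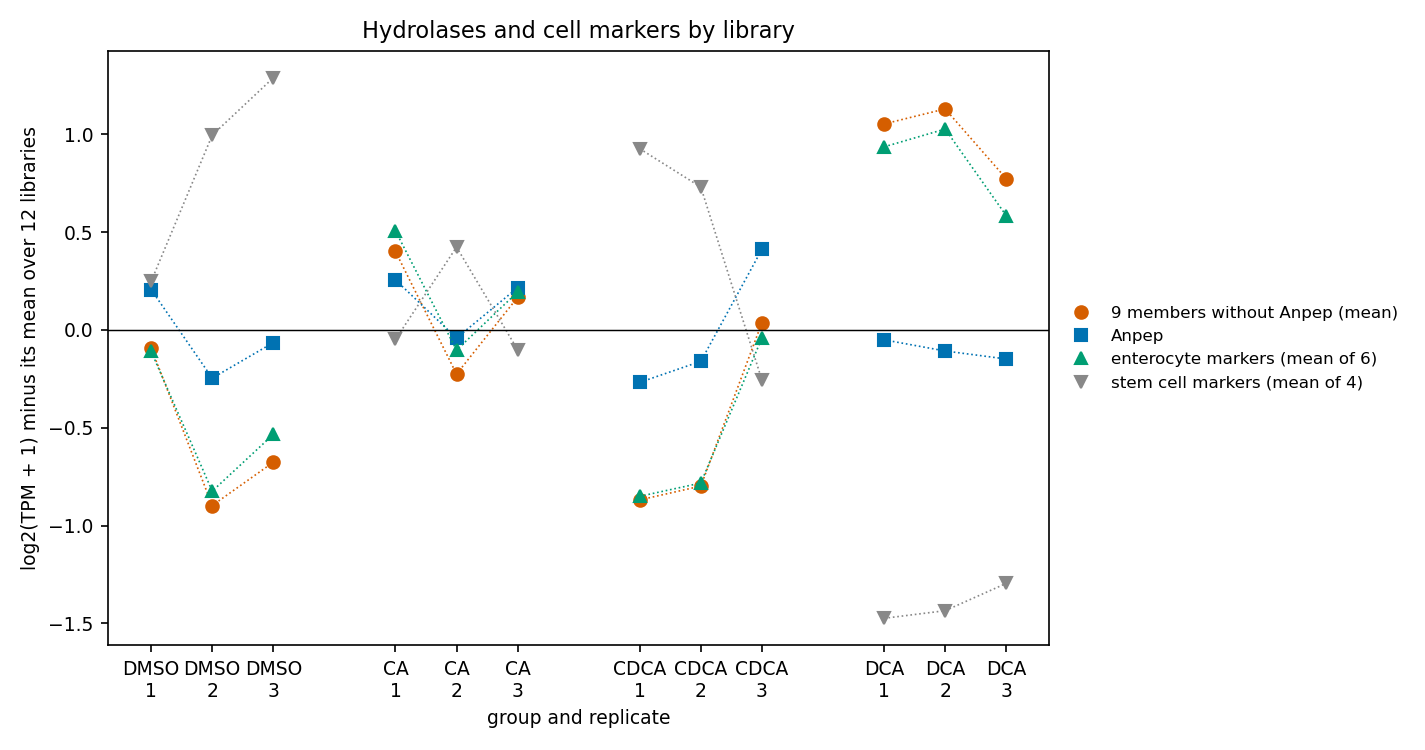
Log2(TPM + 1) minus its mean over the 12 libraries (vertical axis) by library (horizontal axis), for the mean of the 9 members other than Anpep, for Anpep, for the mean of 6 enterocyte markers and for the mean of 4 stem cell markers. In DCA the 9 members lie at 0.77 to 1.13 and the stem cell markers at -1.47 to -1.30, while Anpep lies at -0.15 to -0.051, below its value in CDCA replicate 3 (0.41).

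Of 17 other hydrolases of the brush border and gut lumen, 13 passed the filter of at least 1 TPM in at least 3 libraries. With DCA against DMSO, 9 of these rose and 0 fell in limma, against 18.8% and 19.2% of all rows (median 1.25 over the 13). Ace, the angiotensin-converting dipeptidase, rose from 3.54 ± 1.09 TPM to 20.4 ± 3.31 TPM (SD, n = 3), a difference of 2.25 (limma adjusted p = 0.000103). Dpep1, a dipeptidase that acts on the products of Ggt1, rose by 2.16 (limma adjusted p = 0.000191), and Asah2, a ceramidase, by 2.11 (limma adjusted p = 0.000137). Naaladl1 rose by 1.74 (limma adjusted p = 9.72e-05) and the metalloprotease subunit Mep1a by 1.25 (limma adjusted p = 0.000140). Xpnpep2, an aminopeptidase that cuts before proline, differed by 0.42 (limma adjusted p = 0.312) and Cpm, carboxypeptidase M, by 0.013 (limma adjusted p = 0.945). None of the 13 passed with CA or with CDCA against DMSO in limma, against 0.577% and 0.594% of all rows. Of the 13, 7 and 2 had an unadjusted p under 0.05, against 14.8% and 9.77% of all rows. Folh1, Tmprss15, Enpp7 and Alppl2 were below the filter.

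Of 7 carriers that take up the products, 6 rose with DCA against DMSO in limma (median 1.29), against 18.8% of all rows. They were the sodium-glucose carrier Slc5a1, the fructose carrier Slc2a5, the basolateral glucose carrier Slc2a2, the peptide carrier Slc15a1, and Slc3a1 and Slc7a9, which together carry cystine and basic amino acids. Slc6a19, the carrier of neutral amino acids, was at 5.03 ± 0.736 TPM in DMSO and 4.78 ± 0.727 TPM in DCA (SD, n = 3), a difference of -0.061 (limma adjusted p = 0.787). Of 13 transcription factors known to act on hydrolase genes 11 passed the filter, of which 3 rose and 2 fell with DCA in limma, shares near those of all rows (18.8% higher and 19.2% lower). Those that rose were Gata6 (0.61), Gata4 (0.28) and Elf3 (0.26), and those that fell were Cdx2 (-0.30) and Cdx1 (-0.28). Hnf4a was at 298 ± 54.2 TPM in DMSO and 322 ± 6.35 TPM in DCA (SD, n = 3, limma adjusted p = 0.400).

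The genes whose profile over the 12 libraries was most like the mean standardised profile of the 10 members were Cideb, Clic5, Ugt2a3, Smim24, Cdhr5 and Ces2e, with Pearson correlations of 0.994, 0.993, 0.991, 0.991, 0.988 and 0.988. They were taken from tested genes outside the lists with a mean log2(TPM + 1) of at least 3, and the libraries share groups, so the values only describe likeness. Cideb was at 48.2 ± 10.5 TPM in DMSO, 70.2 ± 10.6 TPM in CA, 49.0 ± 14.4 TPM in CDCA and 101 ± 8.26 TPM in DCA (SD, n = 3).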

How the data were processed

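RNA was measured in 12 libraries, 3 per group, grouped by the sample titles. Each library has a table in which the authors deposited TPM per gene symbol, a unit inferred here from the values. Salmon 1.8.0 and build GRCm39 come from the submitters' processing notes. Annotation and strand setting were not given in the sources used here. Since TPM is relative, abundant RNA that changes shifts every other value. Depth is unknown.

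The members and lists were chosen with earlier results of these data known. All 10 members were named. Each other list gave counts and up to 5 genes of smallest p in DCA against DMSO. Xpnpep2, Cpm, Slc6a19, Hnf4a, further carriers and factors, and genes below the filter were named after their values were seen. Rows reaching 1 TPM in 3 or more libraries (11952) entered limma 3.58.1 in R 4.3.3 as log2(TPM + 1). The model had 4 group means, with trend and robust moderation. Tests were two-sided, with Benjamini-Hochberg adjustment at 0.05 within each of 6 comparisons. The procedure was also run on simulated data with independent noise in each row, whereas the members here moved together. Nothing is drawn from that run. Ratios had exact permutation tests (scipy 1.17.1). Promoters came from RefSeq (GRCm38.p6) and shared words from GENCODE M21, not the authors' build. Alternatives varied pseudocount, filter, scaling, block, moderation and libraries. Removal of 13 mitochondrial and 2 rRNA rows, and of DMSO replicate 1 with CDCA replicate 3, was added after seeing the data. A few items are not reported here.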

Additional observations from a re-analysis of the deposited data

How the results depend on the processing

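Each alternative gave 9 members called in DCA against CDCA. In DCA against DMSO each gave 9, except that 8 were called without DCA replicate 2, DMSO replicate 2 or DMSO replicate 3. All rows called higher ran from 945 of 11922 to 2078 of 11950 in DCA against CDCA. In DCA against DMSO they ran from 1685 of 11921 to 2700 of 11950. In CA against DMSO, CDCA against DMSO and CDCA against CA, 0 members were called under other pseudocount, filter, scaling, block and moderation choices. The same held in fits of the 6 libraries alone, with single libraries left out, and after removal of mitochondrial and rRNA rows. Few rows of any kind were called there, in either direction. They ran from 2 of 11917 to 190 of 11925 in CA against DMSO and from 22 of 11662 to 87 of 11950 in CDCA against DMSO. In CDCA against CA they ran from 2 of 11671 to 34 of 11923. In DCA against CA the number of members called was 1 with no filter, 8 when the 6 libraries were fitted alone and 4 with median-ratio scaling. It was 2 without trend or robust moderation, and 0 to 3 with single libraries left out. All rows called higher numbered 455, 1299, 1190 and 607 in turn, and 199 to 502 with single libraries left out. Without DMSO replicate 1 and CDCA replicate 3 together, 7 members were called in CA against DMSO, 6 in CDCA against CA and 8 in DCA against CA. All rows called in the same direction there numbered 616, 343 and 1081 of 11895. All groups share a single estimate of the spread in these fits, and its part in the changed counts was not tested.

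The replicate block changed none of the member counts (0, 0, 9, 0, 3 and 9 members), but it changed those of all rows. Rows called higher numbered 2125 in DCA against DMSO, 537 in DCA against CA and 1439 in DCA against CDCA. Without the block they numbered 2245, 692 and 1532. Rows called in either direction numbered 49 in CA against DMSO, 45 in CDCA against DMSO and 5 in CDCA against CA. Without the block they numbered 69, 71 and 4. Of 18 pairs of libraries with the same replicate number, 3 had deviations from their group means correlated above 0.1 (-0.378 to 0.109). Pairs of unequal number were not compared, so this cannot settle whether the numbers pair the libraries.

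Signs changed for values that did not pass the test. In CDCA against DMSO, median-ratio scaling gave -0.021 for Dpp4 and -0.0038 for Mme, and removal of mitochondrial and rRNA rows gave -0.014 for Anpep, -0.041 for Dpp4 and -0.023 for Mme. Without DMSO replicate 1 and CDCA replicate 3 together, the values in CDCA against DMSO were -0.059 for Anpep, -0.075 for Dpp4 and -0.020 for Mme, and Anpep was at 0.053 in DCA against DMSO and 0.11 in DCA against CDCA. With single libraries left out, CDCA against DMSO ranged from -0.18 to 0.16 for Anpep, -0.13 to 0.10 for Dpp4, -0.077 to 0.65 for Lct, -0.054 to 0.16 for Mgam, -0.31 to 0.30 for Mme, -0.41 to 0.29 for Sis and -0.35 to 0.22 for Treh. Anpep ranged from -0.17 to 0.053 in DCA against DMSO and from -0.23 to 0.11 in DCA against CDCA. Over all members, comparisons and alternatives, 770 of 840 values kept their sign and their side of the threshold, 18 lost the call, 25 gained it and 27 changed sign. Without mitochondrial and rRNA rows the median of all rows in DCA against DMSO was -0.15, and that of the members 1.30. TPM keeps no depth, so the counting error of low members such as Lct and Mme is unknown.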
